A study of Mus musculus with 24 samples.

Results

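The genes described here are 9 members of the vascular endothelial growth factor (VEGF) system of the mouse, of 49568 gene rows in each deposited table. They were taken by symbol and are 4 ligand genes (Vegfa, Vegfb, Vegfc and Pgf), 3 receptor tyrosine kinase genes (Flt1, Kdr and Flt4) and 2 co-receptor genes (Nrp1 and Nrp2). All 9 are listed in both experiments and all 9 passed the filter on low values in each. The study asked how the stroma around the bile ducts of the liver controls the ductal epithelium, and sequenced RNA of sorted and cultured liver cells by Smart-seq2, which copies whole transcripts.

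In the homeostasis experiment, ductal cells (DCs, EpCAM+) and 3 stromal fractions were sorted from healthy livers of 3 littermates, A, E and F, of 12 weeks. All mice carried 1 Pdgfra allele with nuclear H2B-GFP on a C57BL/6 background, and PDGFRα was read from that GFP. The stromal fractions were PDGFRα+SCA1+, PDGFRα+SCA1- and PDGFRα-SCA1+, where SCA1 is a surface protein of periportal stroma and of the portal vein lining. Sorting left out cells with CD31, CD11b or CD45 on their surface, and A and E were male whereas F was female. The transwell experiment used wild-type C57BL/6 mice of 8 to 12 weeks, with 2 samples per group. DCs and stromal cells sorted on SCA1 without PDGFRα (SCA1+Msc) were taken at day 0. At day 15, DCs had grown alone as organoids in expansion medium (EM organoids) or above SCA1+Msc in mesenchymal medium without those growth factors across a membrane (co-cultured organoids), and SCA1+Msc had been cultured alone or below the DCs (co-cultured). The SCA1+Msc had been expanded for 7 days before DCs were added, and cells of each kind came from 2 littermates, so that p-values of this experiment measure the spread between 2 samples that may share litter and handling. Passage in culture and medium cannot be told apart from the 15 days. EM organoids and co-cultured organoids differed both in medium and in the presence of stroma, so these cannot be told apart where the groups are compared.

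VEGF ligands are secreted proteins that bind receptor tyrosine kinases, mainly on endothelial cells, and drive the growth, survival and permeability of blood and lymph vessels. VEGF-A acts mainly through KDR (VEGFR2), while FLT1 (VEGFR1) binds VEGF-A, VEGF-B and placental growth factor with a weak kinase and also exists as a soluble decoy. VEGF-C and VEGF-D act on FLT4 (VEGFR3), which in the liver marks sinusoidal and lymphatic endothelium, and the neuropilins serve as co-receptors for VEGFs and as receptors for class 3 semaphorins.

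The 250 bases before the RefSeq start of 3 members (build GRCm38.p6) are shown because these genes had the contrasting patterns described here. Kdr was high in a single fraction, Flt1 was high in that fraction and present in mesenchyme, and Vegfc was at a similar level in all 3 stromal fractions. Kdr lies on the minus strand at chr5:75978456-75978705, Flt1 on the minus strand at chr5:147726012-147726261 and Vegfc on the plus strand at chr8:54077282-54077531. Capitals mark a GC box (GGGCGG or CCGCCC) or a TATA box (TATAAA).
Kdr: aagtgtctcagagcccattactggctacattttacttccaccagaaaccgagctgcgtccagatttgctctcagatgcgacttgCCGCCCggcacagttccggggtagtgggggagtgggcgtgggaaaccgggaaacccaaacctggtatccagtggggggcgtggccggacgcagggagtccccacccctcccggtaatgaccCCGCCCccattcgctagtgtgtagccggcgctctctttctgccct
Flt1: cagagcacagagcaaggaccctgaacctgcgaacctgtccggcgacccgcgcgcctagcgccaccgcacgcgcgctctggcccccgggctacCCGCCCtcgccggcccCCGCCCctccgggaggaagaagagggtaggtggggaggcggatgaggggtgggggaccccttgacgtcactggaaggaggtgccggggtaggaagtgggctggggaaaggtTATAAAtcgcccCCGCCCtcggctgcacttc
Vegfc: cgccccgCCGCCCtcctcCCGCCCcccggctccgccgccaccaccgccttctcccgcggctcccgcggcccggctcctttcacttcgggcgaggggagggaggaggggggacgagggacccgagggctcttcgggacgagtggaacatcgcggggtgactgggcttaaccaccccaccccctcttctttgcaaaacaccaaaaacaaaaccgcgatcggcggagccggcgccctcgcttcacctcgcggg

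All 9 members were matched in the promoter table, Vegfa and Pgf with 2 starts each. Searched on both strands, the GC box was found 2 times in the Kdr window, 3 times in that of Flt1 and 2 times in that of Vegfc, and 32.7% of the 32851 windows of this length in the table held at least 1. The TATA box was found once in the Flt1 window and not in the other 2 shown, against 12.4% of all windows. GATA was found once in the Kdr window and in neither of the others (53.6% of all windows), the ETS core GGAA was found 4 times each before Kdr and Flt1 and once before Vegfc (93.4%), and the hypoxia response core ACGTG was found in none of the 3 (16.6%). GC content was 61.6% for Kdr, 70.4% for Flt1 and 71.6% for Vegfc. These matches describe the letters only.

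Sequencing depth, recovered from low values, was 19629500 to 25653600 reads per sample in homeostasis and 19291700 to 28047600 in the transwell experiment. Homeostasis values are given as deposited and transwell values as TPM, a level scaled for gene length and depth. The sorted fractions were checked with marker lists that leave out the members. The summed level of 17 endothelial markers was 14438 to 16410 in PDGFRα-SCA1+ cells, 906 to 2995 in the 2 PDGFRα+ fractions and 56.1 to 103 in DCs. The PDGFRα-SCA1+ fraction therefore carried an endothelial program although it was sorted as CD31-, and the transcript of CD31, Pecam1, was at 726 to 929 there. In the 2 PDGFRα+ fractions, Eng and Plvap were the largest parts of the endothelial sum. Hepatocyte markers were also present, with sums of 2066 to 6641 in PDGFRα-SCA1+ cells, 5850 to 6984 in DCs and 16610 to 21383 in SCA1+Msc at day 0. In these bulk samples, fewer cells of a type and less RNA per cell cannot be told apart.

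In healthy liver, the receptor and co-receptor genes were highest in PDGFRα-SCA1+ cells, Vegfc was at overlapping levels in all 3 stromal fractions, Pgf overlapped between PDGFRα-SCA1+ and PDGFRα+SCA1+ cells, Vegfb overlapped in all 4 fractions and Vegfa was lowest in PDGFRα-SCA1+ cells. Relative to DCs, 8 of 9 members differed in PDGFRα-SCA1+ cells by limma with Benjamini-Hochberg adjustment over 17028 genes, 7 higher and Vegfa lower. Of all genes tested 22.8% were called, 11.5% higher and 11.3% lower. The study itself named Kdr as an endothelial gene high in PDGFRα-SCA1+ cells, so that its high value here is not a separate observation. In liver sections, the study found SCA1 protein in the portal vein lining but not in sinusoidal endothelium stained for VEGFR3, the product of Flt4. How that staining relates to the Flt4 values here was not tested.

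Vegfa, the main angiogenic ligand, was at 35.7, 31.7 and 22.6 in DCs of mice A, E and F and at 45.1, 30.3 and 39.3 in PDGFRα+SCA1+ cells. In PDGFRα+SCA1- cells it was at 16.5, 41.3 and 38.7, and in PDGFRα-SCA1+ cells at 11.8, 4.14 and 7.85. The PDGFRα-SCA1+ samples were below every other sample, and the other 3 fractions overlapped. The log2 difference of PDGFRα-SCA1+ cells was -1.87 ± 0.45 (SE, adjusted p = 0.00949) from DCs, -2.21 ± 0.45 (adjusted p = 0.00438) from PDGFRα+SCA1+ cells and -1.89 ± 0.45 (adjusted p = 0.0105) from PDGFRα+SCA1- cells. The last of these was no longer called when only the 2 groups compared were fitted (adjusted p = 0.0900).

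Vegfb, a ligand of FLT1 and NRP1, was at 30.6, 15.7 and 8.19 in DCs, 19.5, 27.5 and 16.6 in PDGFRα+SCA1+ cells, 24.8, 34.8 and 0.503 in PDGFRα+SCA1- cells and 35.0, 0.667 and 15.5 in PDGFRα-SCA1+ cells. All 4 fractions overlapped, and single samples stood as low as 6 reads. No comparison of Vegfb was called in homeostasis, and the 95% interval of its log2 difference between PDGFRα-SCA1+ cells and DCs ran from -3.44 to 1.91.

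Vegfc, a lymphangiogenic ligand, was at 2.43, 8.16 and 0.176 in DCs. It was at 127, 125 and 184 in PDGFRα+SCA1+ cells, at 170, 85.8 and 136 in PDGFRα+SCA1- cells and at 133, 125 and 229 in PDGFRα-SCA1+ cells. Every stromal sample was above every DC sample, and the stromal fractions overlapped. The log2 differences from DCs were 5.43 ± 0.60 (adjusted p = 2.97e-05), 5.25 ± 0.60 (adjusted p = 3.82e-05) and 5.56 ± 0.60 (adjusted p = 2.71e-05), in the same order of fractions. Between PDGFRα-SCA1+ and PDGFRα+SCA1+ cells the difference was 0.13, with a 95% interval from -1.17 to 1.43.

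Pgf, which encodes placental growth factor, a ligand of FLT1, was at 2.91, 0 and 2.24 in DCs, 159, 223 and 156 in PDGFRα+SCA1+ cells and 111, 148 and 184 in PDGFRα-SCA1+ cells. In PDGFRα+SCA1- cells it was at 0.191 in mouse A, 209 in mouse E and 13.2 in mouse F. That fraction spanned the range from the DCs to the other stroma, with an SD of 117 around a mean of 74.2. Pgf was higher than in DCs by 6.25 ± 1.33 in PDGFRα+SCA1+ cells (adjusted p = 0.00432) and by 5.97 ± 1.33 in PDGFRα-SCA1+ cells (adjusted p = 0.00570). The value for PDGFRα+SCA1- cells, 2.71 ± 1.33, did not pass (adjusted p = 0.148), and without its mouse A sample it was 4.55 with an adjusted p of 0.00326. Without its mouse E sample, PDGFRα+SCA1- cells were lower in Pgf than PDGFRα+SCA1+ cells (log2 difference of the latter 5.43, adjusted p = 0.0146) and than PDGFRα-SCA1+ cells (5.14, adjusted p = 0.00180), which were not called with all samples (adjusted p = 0.320 and 0.104).

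**Figure D1:**
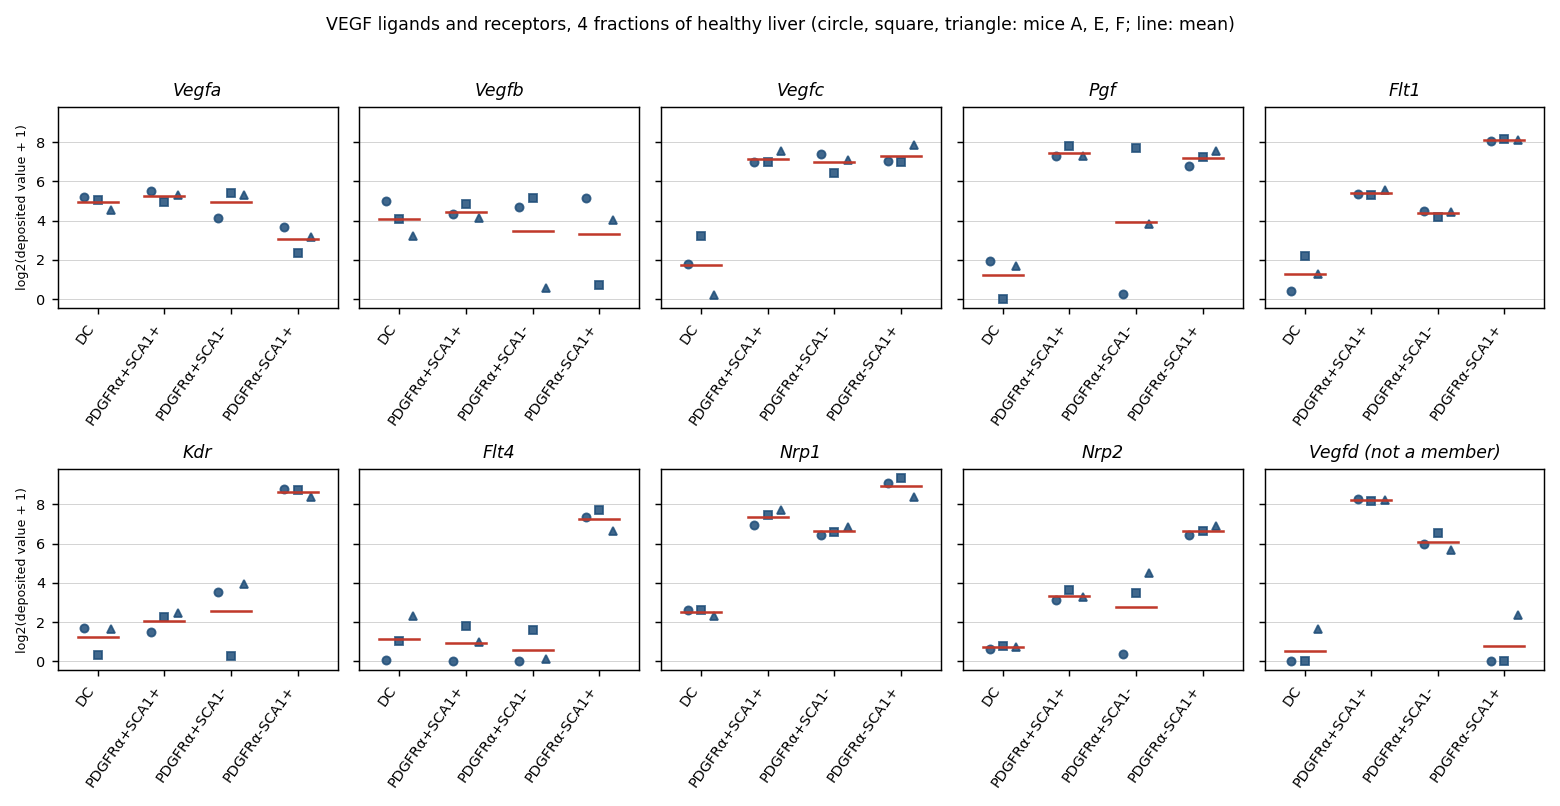
Levels of the 9 members and of Vegfd in each sample of the 4 fractions of healthy liver, as log2(deposited value + 1). Symbols stand for mice A, E and F and lines for the mean of 3 samples. Kdr and Flt4 are high in PDGFRα-SCA1+ samples alone, Flt1 and Nrp1 step from DCs over the PDGFRα+ fractions to PDGFRα-SCA1+ cells, and Vegfd is high in the 2 PDGFRα+ fractions.

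The receptor genes separated the fractions by different steps. Flt1 was at 0.316, 3.52 and 1.47 in DCs, 17.5 to 21.4 in PDGFRα+SCA1- cells, 38.5 to 46.998 in PDGFRα+SCA1+ cells and 263, 290 and 277 in PDGFRα-SCA1+ cells. The 4 ranges did not overlap. Flt1 was higher than in DCs by 6.82 ± 0.41 in PDGFRα-SCA1+ cells (adjusted p = 4.67e-07), by 4.12 ± 0.41 in PDGFRα+SCA1+ cells (adjusted p = 1.27e-05) and by 3.08 ± 0.41 in PDGFRα+SCA1- cells (adjusted p = 0.000123). PDGFRα-SCA1+ cells exceeded PDGFRα+SCA1+ cells by 2.71 ± 0.41 (adjusted p = 0.000509).

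Kdr, the main signalling receptor for VEGF-A, was at 443, 423 and 332 in PDGFRα-SCA1+ cells. It was at 2.25, 0.264 and 2.09 in DCs, 1.79, 3.82 and 4.51 in PDGFRα+SCA1+ cells and 10.6, 0.201 and 14.6 in PDGFRα+SCA1- cells. The other 3 fractions overlapped and lay far under the PDGFRα-SCA1+ samples, whose log2 difference was 7.41 ± 0.83 from DCs (adjusted p = 3.67e-05) and 6.56 ± 0.83 from PDGFRα+SCA1+ cells (adjusted p = 0.000138). Between PDGFRα+SCA1+ cells and DCs the difference was 0.85 with a 95% interval from -0.95 to 2.65. Flt1 but not Kdr was called against DCs in both PDGFRα+ fractions, while the difference between these 2 effects was not tested. With the deposited scaling undone, the level of Flt1 was 0.740 to 0.802 times that of Kdr in PDGFRα-SCA1+ cells and 11.2 to 20.9 times in PDGFRα+SCA1+ cells. In PDGFRα+SCA1- cells it was 2.17, 82.3 and 1.91 times that of Kdr in mice A, E and F. Of the 17 endothelial markers, 4 were called higher in PDGFRα+SCA1+ cells than in DCs, 0 lower and 13 were not called. The 4 were Plvap (log2 difference 6.65), Eng (6.04), Clec14a (4.52) and Esam (3.29), and Erg was the 1 marker at 0 in every sample of that fraction. Their part in the Flt1 values was not tested.

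Flt4 was at 165, 210 and 98.8 in PDGFRα-SCA1+ cells and at 3.93 or less in each of the other 9 samples. The log2 difference was 6.12 ± 0.74 from DCs (adjusted p = 6.79e-05) and 6.32 ± 0.74 from PDGFRα+SCA1+ cells (adjusted p = 7.90e-05). Of 9 sinusoidal and lymphatic endothelial markers, 7 were higher and 2 lower in PDGFRα-SCA1+ cells than in DCs. The 7 were Clec4g, Gata4, Oit3, Stab1, Stab2, Lyve1 and Fcgr2b, and the lower ones were Prox1 (log2 difference -3.36, adjusted p = 0.00713) and Pdpn (-3.79, adjusted p = 0.00224), which are used as lymphatic markers. DCs themselves held both, at means of 78.2 for Prox1 and 55.3 for Pdpn, against 7.69 and 4.33 in PDGFRα-SCA1+ cells. Means in PDGFRα+SCA1+ and PDGFRα+SCA1- cells were 3.94 and 3.86 for Prox1 and 705 and 473 for Pdpn. Of the 7 higher markers, only Gata4 was also called above DCs in these fractions (log2 differences 6.64 and 6.56). Its means were 130 and 127 there, against 324 in PDGFRα-SCA1+ cells.

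The co-receptor Nrp1 was at 546, 647 and 329 in PDGFRα-SCA1+ cells. It was at 124, 176 and 208 in PDGFRα+SCA1+ cells, 86.97, 97.1 and 116 in PDGFRα+SCA1- cells and 3.94 to 5.20 in DCs, with no overlap between any 2 fractions. All 3 stromal fractions exceeded DCs, by 6.42 ± 0.30 (PDGFRα-SCA1+, adjusted p = 6.96e-08), 4.86 ± 0.30 (PDGFRα+SCA1+, adjusted p = 3.40e-07) and 4.13 ± 0.30 (PDGFRα+SCA1-, adjusted p = 1.28e-06). PDGFRα-SCA1+ cells were above PDGFRα+SCA1+ cells by 1.55 ± 0.30 (adjusted p = 0.00331).

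Nrp2, the co-receptor that pairs with FLT4, was at 86.5, 97.6 and 118 in PDGFRα-SCA1+ cells, 7.87, 11.4 and 8.66 in PDGFRα+SCA1+ cells and 0.518, 0.740 and 0.645 in DCs. In PDGFRα+SCA1- cells it was at 0.281, 10.3 and 21.6. PDGFRα-SCA1+ samples were above all others, by 5.95 ± 0.82 against DCs (adjusted p = 0.000197) and by 3.30 ± 0.82 against PDGFRα+SCA1+ cells (adjusted p = 0.0137). The latter lost its call with a pseudocount of 0.1 (adjusted p = 0.0688). PDGFRα+SCA1+ cells exceeded DCs by 2.64 ± 0.82 (adjusted p = 0.0344), a call that was lost without a filter on low values (adjusted p = 0.0642) and when any 1 of the 6 samples compared was left out (adjusted p = 0.0743 to 0.103). The difference of PDGFRα+SCA1- cells from DCs, 2.08 ± 0.82, did not pass (adjusted p = 0.0783), and without its mouse A sample it was 3.29 with an adjusted p of 0.000206.

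Counted over members, PDGFRα-SCA1+ cells differed from PDGFRα+SCA1+ cells in 6 of 9 (18.8% of all genes, 10.9% higher and 7.86% lower) and from PDGFRα+SCA1- cells in 6 of 9 (21.5%, 14.2% higher and 7.24% lower), the 5 receptor and co-receptor genes higher and Vegfa lower each time. PDGFRα+SCA1+ cells differed from DCs in 5 of 9 (23.8%), all higher (9.85%), and PDGFRα+SCA1- cells in 3 of 9 (28.8%), all higher (9.98%). These comparisons share fractions and are not independent. Between the 2 PDGFRα+ fractions limma called 0 of 9 members (0.587% of all genes, 0.435% higher and 0.153% lower). At an unadjusted p under 0.05 stood 3 members (Pgf, Flt1 and Nrp1). The share of all genes at that looser threshold is not given here, so these 3 cannot be set against it. In that comparison Flt1 (log2 difference 1.03, 95% interval 0.15 to 1.92, adjusted p = 0.342) and Nrp1 (0.73, 0.07 to 1.39, adjusted p = 0.375) were higher in PDGFRα+SCA1+ cells in all samples without overlap.

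**Figure D2:**
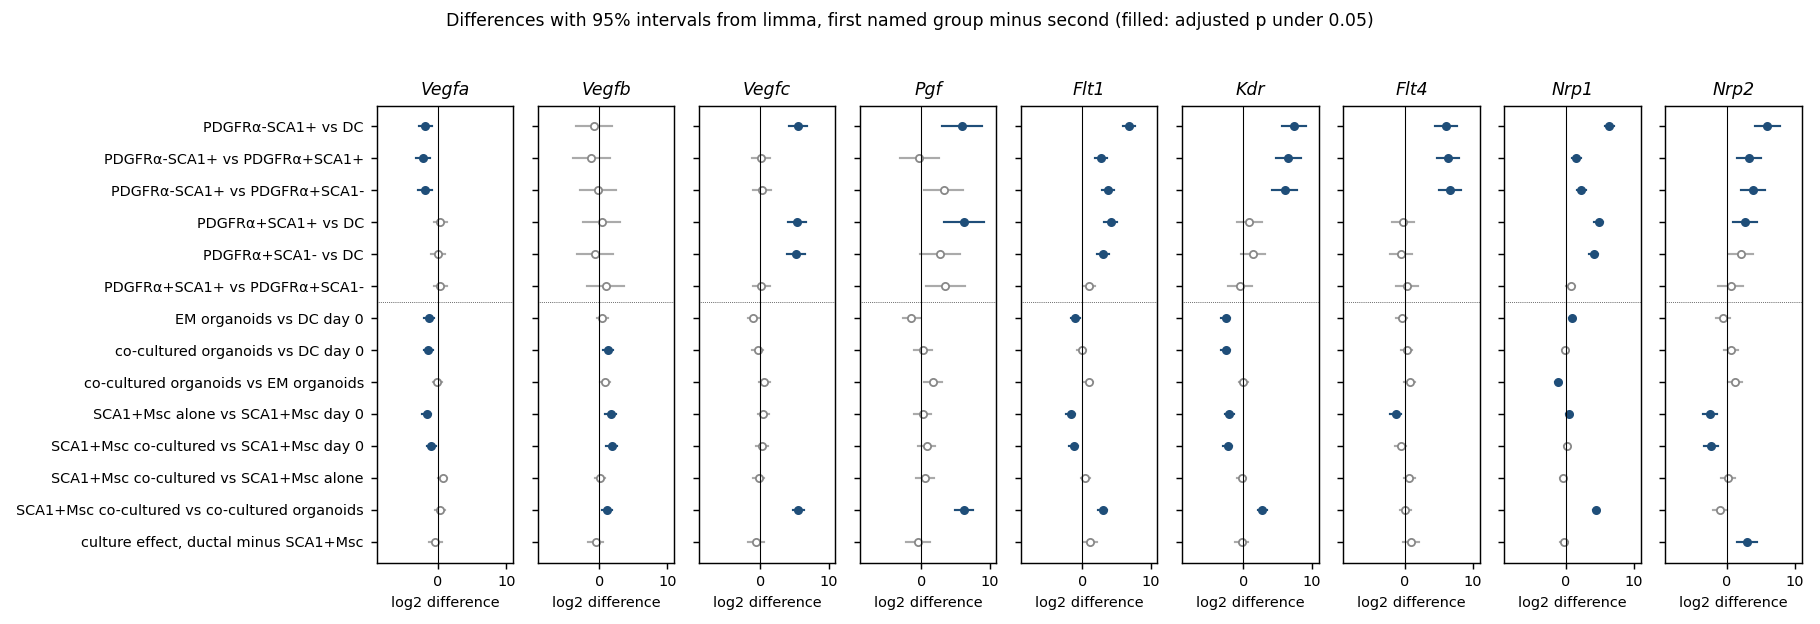
Log2 differences of the 9 members in the 14 comparisons, with 95% intervals from limma. Filled points had an adjusted p under 0.05, and the dotted line parts the 6 homeostasis from the 8 transwell comparisons. The 5 receptor and co-receptor genes lie right of 0 in the first 3 rows, and Kdr lies left of 0 in all 4 comparisons of a culture with day 0.

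The remaining genes of the pathway came from lists that were chosen with earlier results of these data known, so their counts are descriptions. Among 10 listed genes of the VEGF family and its processing, 6 were higher and 1 lower in PDGFRα+SCA1+ cells than in DCs, with a median log2 difference of 3.33 against -0.28 over all genes. The largest was Vegfd, which encodes the second ligand of FLT4. Vegfd was at 309, 285 and 300 in PDGFRα+SCA1+ cells, 61.9, 93.7 and 50.6 in PDGFRα+SCA1- cells, and 4.22 or less in every sample of DCs and PDGFRα-SCA1+ cells. It exceeded DCs by 7.68 ± 0.66 (adjusted p = 4.51e-06) and PDGFRα-SCA1+ cells were below PDGFRα+SCA1+ cells (log2 difference -7.43 ± 0.66, adjusted p = 1.03e-05). Ccbe1 and Adamts3, whose proteins act together in the cleavage that activates VEGF-C, had means of 21.8 and 21.0 in PDGFRα+SCA1+ cells, 21.4 and 17.5 in PDGFRα+SCA1- cells and 0.00530 and 0 in DCs. In PDGFRα-SCA1+ cells their means were 0.0118 and 1.94, both lower than in PDGFRα+SCA1+ cells (log2 differences -4.48 ± 0.48 with adjusted p = 4.18e-05, and -3.18 ± 0.79 with adjusted p = 0.0133). The call of Adamts3 was lost without the PDGFRα-SCA1+ sample of mouse E (adjusted p = 0.0554).

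Of 25 genes of VEGF receptor signalling and response, 12 were higher and 5 lower in PDGFRα-SCA1+ cells than in DCs, with a median of 1.63 against -0.04 over all genes. Esm1, a secreted product of VEGF-stimulated tip cells, was at 248 to 335 there and at 0 in every DC sample. Dll4, a Notch ligand induced by VEGF, exceeded DCs by 7.85 ± 0.97 (adjusted p = 8.31e-05). The 5 lower genes were Src (log2 difference -4.44), Kcne3 (-3.38), Prkca (-2.57), Pdgfb (-1.64) and Unc5b (-1.39). Apln was not called (adjusted p = 0.435). In the angiopoietin list 4 of 6 genes were higher and 1 lower, including Tek by 8.20 ± 1.008 (adjusted p = 7.77e-05) and Tie1 by 7.76 ± 0.76 (adjusted p = 1.36e-05), receptors of that family. Among 12 neuropilin partners, 6 were higher and 3 lower. Plxnd1, a semaphorin receptor of vessels, rose by 5.37 ± 0.49 (adjusted p = 8.23e-06), whereas the ductal Sema3c fell by 6.18 ± 0.54 (log2 difference -6.18, adjusted p = 5.59e-06), from 104 to 133 in DCs to 2.88 or less. Of 20 hypoxia response genes 5 were higher and 3 lower, with a median of 0.21.

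As a share of the summed level of the 4 ligand members and Vegfd, with the deposited scaling undone, Vegfa made up 49.96% to 63.0% in DCs and 1.81% to 4.79% in PDGFRα-SCA1+ cells. Vegfd made up 40.4% to 49.8% in PDGFRα+SCA1+ cells, while in PDGFRα-SCA1+ cells Vegfc made up 40.4% to 57.5% and Pgf 35.5% to 57.5%. The sum itself was 35.9 to 69.5 in DCs and 587 to 786 in PDGFRα+SCA1+ cells.

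**Figure D3:**
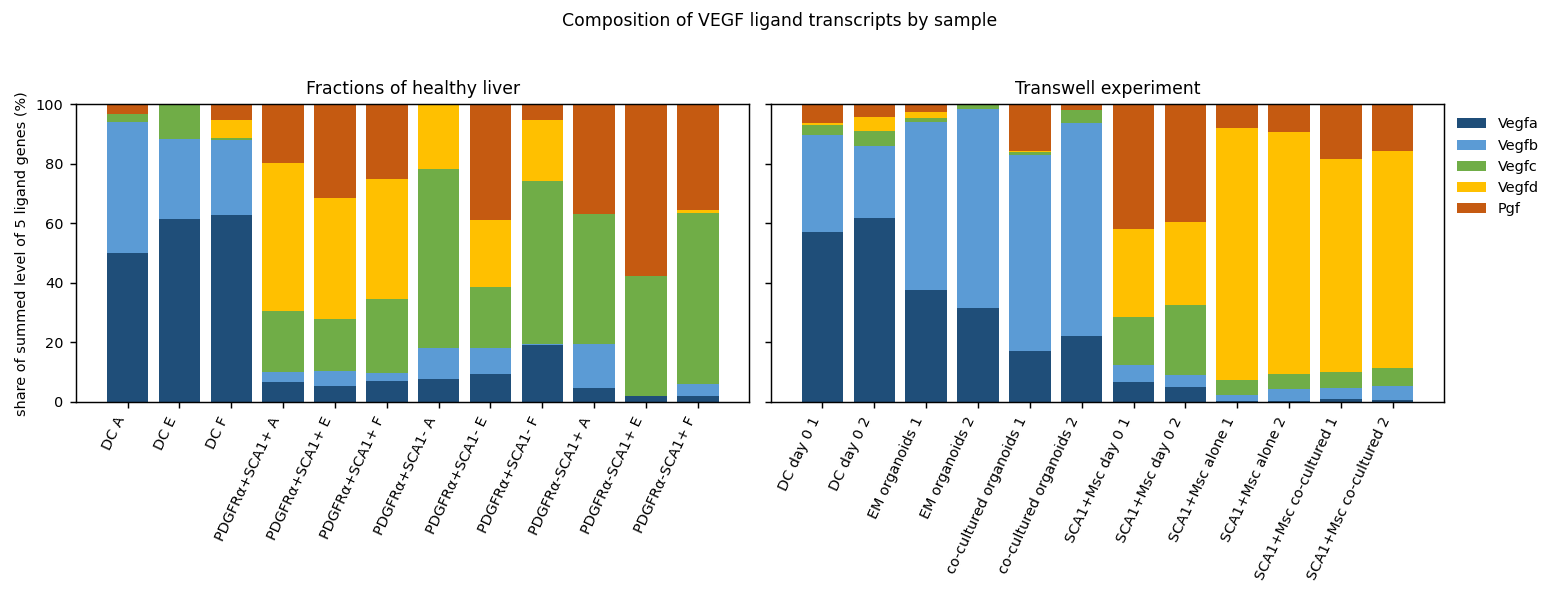
Share of each of 5 ligand genes in their summed level, 1 bar a sample, in the 4 fractions (left, deposited scaling undone) and the 6 transwell groups (right, TPM). Vegfa and Vegfb fill most of each ductal bar, whereas Vegfc, Vegfd and Pgf fill most of each stromal bar.

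In the transwell experiment, Vegfa and Kdr fell in both cultures of ductal cells. EM organoids differed from DCs at day 0 in 4 of 9 members (44.4% of 18136 genes tested were called, 27.1% higher and 17.2% lower), with Vegfa, Flt1 and Kdr lower and Nrp1 higher. Co-cultured organoids differed from them in 3 of 9 (42.3%, 23.2% higher and 19.1% lower), with Vegfa and Kdr lower and Vegfb higher. Both shares lie near or below that of all genes.

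Vegfa was at 26.2 and 31.6 TPM in DCs at day 0, 9.78 and 12.3 in EM organoids and 9.08 and 11.5 in co-cultured organoids. Both organoid groups lay under the day 0 samples and overlapped each other, with log2 differences from day 0 of -1.32 ± 0.31 (adjusted p = 0.00628) and -1.41 ± 0.31 (adjusted p = 0.00469). Car9, a hypoxia-induced carbonic anhydrase, went the other way, from 13.8 to 15.8 at day 0 to 522 to 634 in EM organoids and 492 to 567 in co-cultured organoids. Adm, Ndrg1 and Slc2a1 of the same list went down, from means of 125, 269 and 776 at day 0. Their means were 9.39, 17.0 and 289 in EM organoids and 24.5, 103 and 385 in co-cultured organoids. Of 21 listed hypoxia response genes, 8 were higher and 6 lower in EM organoids, and 11 were higher and 7 lower in co-cultured organoids. Hepatocyte marker sums were 4259 to 5338 at day 0, 1523 to 1638 in EM organoids and 177 to 378 in co-cultured organoids. Their part in the result was not tested.

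Vegfb was at 15.1 and 12.3 in DCs at day 0, 14.6 and 26.0 in EM organoids and 34.7 and 37.6 in co-cultured organoids. The co-cultured organoids lay above both other groups, by 1.34 ± 0.34 against day 0 (adjusted p = 0.0102) and by 0.86 ± 0.34 against EM organoids (adjusted p = 0.141). The first of these was lost without replicate 2 of either group (adjusted p = 0.0661 and 0.0553). Vegfc stayed at 2.55 or less in all 6 ductal samples. Pgf was at 2.86 and 2.12 in DCs, 0.620 and 0 in EM organoids and 8.34 and 0.922 in co-cultured organoids, and the difference between the organoid groups was not called (1.73 ± 0.57, adjusted p = 0.0832). Without replicate 2 of the co-cultured organoids it was 2.87 with an adjusted p of 0.00106.

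Kdr was at 5.74 and 4.30 in DCs at day 0 and at 0 in all 4 organoid samples, where no read was found. Against the floor of 3 reads per library, day 0 was at least 96.4-fold higher than EM organoids and at least 113.9-fold higher than co-cultured organoids (adjusted p = 8.22e-05 and 9.00e-05). Flt1 was at 0.860 and 1.37 at day 0, at 0.0208 and 0 in EM organoids and at 1.38 and 0.580 in co-cultured organoids. EM organoids were lower than day 0 (adjusted p = 0.0182), a call lost in 4 of 9 alternatives, among them the exclusion of either EM sample (adjusted p = 0.0628 and 0.0686) or of day 0 replicate 2 (adjusted p = 0.0992). Endothelial marker sums were 136 to 148 in DCs at day 0, 62.1 to 62.9 in EM organoids and 42.8 to 46.2 in co-cultured organoids. Sox17, Ecscr and Egfl7 were the largest parts of the sum in each kind of organoid. Of the 17 markers, 12 were lower in each kind of organoid than at day 0, while 2 were higher in EM organoids (Sox17 and Egfl7) and 1 in co-cultured organoids (Sox17). In each kind of organoid 8 were at 0 in both samples. The part of endothelial cells in the fall of Kdr was not tested. Of 25 receptor signalling and response genes, 3 were higher and 10 lower in EM organoids than at day 0, and 3 higher and 9 lower in co-cultured organoids.

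Nrp1 was at 4.67 and 5.26 in DCs at day 0, 11.1 and 9.95 in EM organoids and 4.93 and 4.08 in co-cultured organoids. The EM organoids stood above both other groups, by 0.95 ± 0.19 against day 0 (adjusted p = 0.00262), and co-cultured organoids were lower than EM organoids by 1.07 ± 0.19 (log2 difference -1.07, adjusted p = 0.00540). Nrp1 was the 1 member of 9 called between the 2 kinds of organoid (12.9% of all genes, 5.73% higher and 7.21% lower). Nrp2 was at 2.12 and 2.33 at day 0, 1.60 and 0.807 in EM organoids and 2.94 and 5.94 in co-cultured organoids. It was not called in any of these 3 comparisons. Flt4, at 2.93 to 8.61 in the 6 samples, was not called either. Of the 12 listed neuropilin partners, Sema3e and Sema3b, which encode class 3 semaphorins, were higher in co-cultured than in EM organoids. Sema3e was higher by 2.67 ± 0.34 (adjusted p = 0.000997), from 3.74 and 4.26 to 30.1 and 31.5. The rest of that list is not described here for this comparison.

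**Figure D4:**
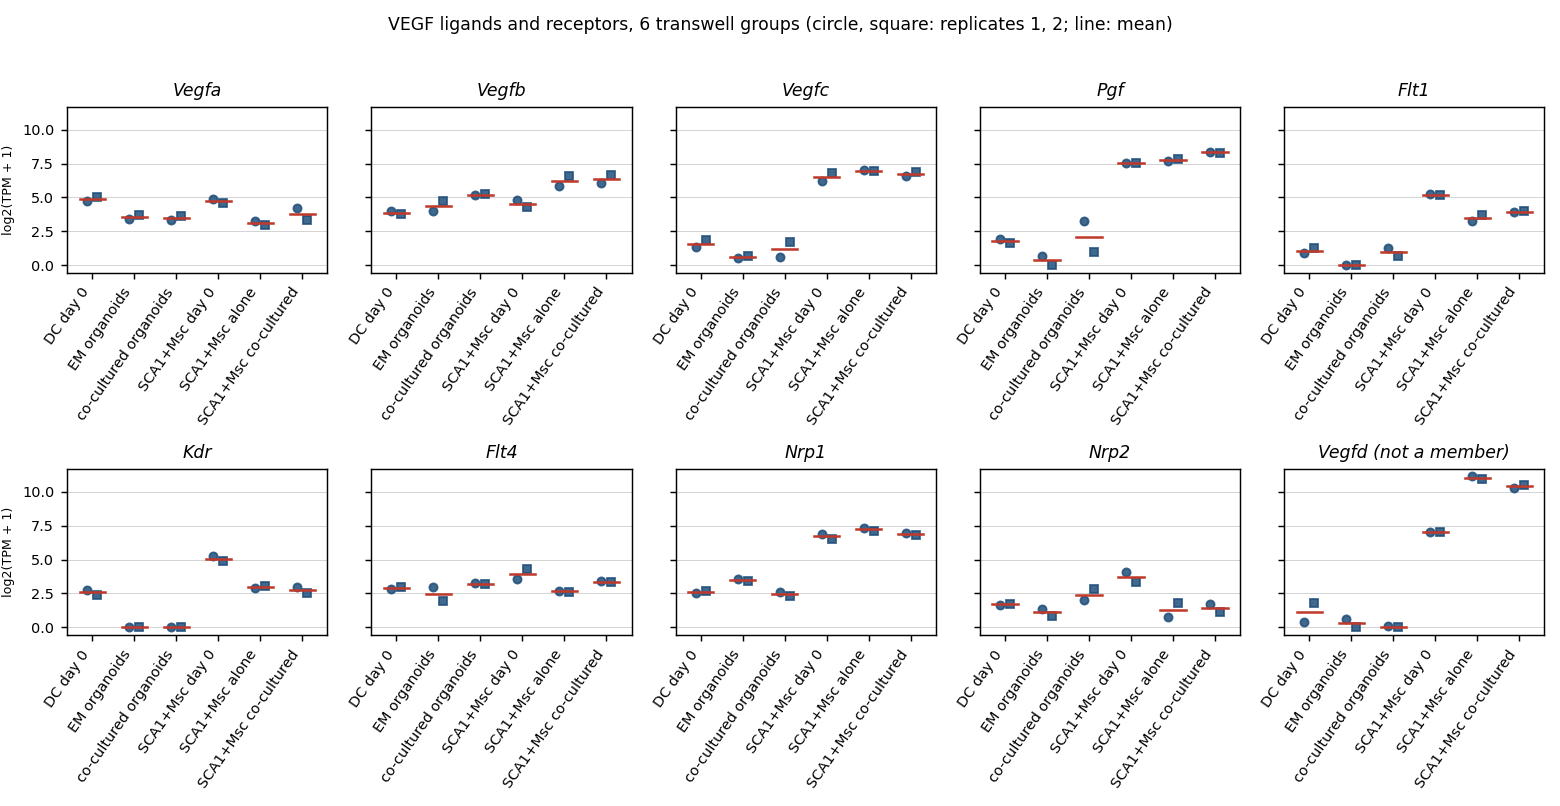
Levels of the 9 members and of Vegfd in each sample of the 6 transwell groups, as log2(TPM + 1). Symbols stand for replicates 1 and 2 and lines for their mean. Kdr is at 0 in all 4 organoid samples, Kdr, Flt1 and Nrp2 are lower in cultured than in day 0 SCA1+Msc, and Vegfd is highest in cultured SCA1+Msc.

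In SCA1+Msc, Vegfa, Flt1, Kdr and Nrp2 fell and Vegfb rose in both cultures. SCA1+Msc cultured alone differed from day 0 in 7 of 9 members (44.8% of all genes, 27.4% higher and 17.5% lower), with Vegfb and Nrp1 higher and Vegfa, Flt1, Kdr, Flt4 and Nrp2 lower. Co-cultured SCA1+Msc differed from day 0 in 5 of 9 (43.3%, 26% higher and 17.3% lower), with Vegfb higher and Vegfa, Flt1, Kdr and Nrp2 lower. Both comparisons share the day 0 samples.

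Kdr was at 36.9 and 28.7 TPM at day 0, 6.57 and 7.28 in SCA1+Msc alone and 6.73 and 4.83 in co-cultured SCA1+Msc. Both cultures lay under day 0, with log2 differences of -2.08 ± 0.29 (adjusted p = 0.000322) and -2.32 ± 0.29 (adjusted p = 0.000177), and overlapped each other. Flt1 went from 36.3 and 35.1 to 8.61 and 12.0 alone and 13.8 and 14.6 in co-culture. Its log2 differences were -1.71 ± 0.30 (adjusted p = 0.00142) and -1.27 ± 0.30 (adjusted p = 0.00754), the latter lost with a pseudocount of 0.1 (adjusted p = 0.0575).

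Nrp2 was at 15.5 and 9.35 at day 0, 0.704 and 2.41 alone and 2.28 and 1.19 in co-culture, with all cultured samples under day 0 and differences of -2.44 ± 0.46 (adjusted p = 0.00201) and -2.29 ± 0.46 (adjusted p = 0.00298). The change of Nrp2 from day 0 to co-culture differed between cell types, being higher in ductal cells than in SCA1+Msc by 2.98 ± 0.65 (interaction, adjusted p = 0.00821). Nrp2 was the 1 of 9 members called there (28.3% of all genes, 13.8% higher and 14.5% lower). This test sets cultured against day 0 cells and does not single out co-culture, since Nrp2 overlapped between SCA1+Msc alone and in co-culture. Flt4 was at 11.01 and 18.9 at day 0, 5.54 and 5.23 alone and 9.78 and 8.95 in co-culture. It fell alone (log2 difference -1.28 ± 0.35, adjusted p = 0.0153) and was not called in co-culture (adjusted p = 0.223). The call alone was lost in 4 of 10 alternatives, among them the exclusion of day 0 replicate 2 (adjusted p = 0.0903) or of either sample alone (adjusted p = 0.0553 and 0.0653). Nrp1 was at 121 and 91.1 at day 0, 164 and 139 alone and 124 and 113 in co-culture. Its rise alone, 0.52 ± 0.19 (adjusted p = 0.0466), was lost in 8 of 10 alternatives, with adjusted p up to 0.249.

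The day 0 SCA1+Msc held both mesenchymal and endothelial transcripts. The endothelial marker sum was 2480 to 2611 at day 0, 1873 to 2325 alone and 1994 to 2271 in co-culture, while mesenchymal marker sums were 24652 to 26172 at day 0 and 39369 to 44876 in culture. Eng and Plvap were the largest parts of the endothelial sum at day 0, with means of 959 and 709. In homeostasis both were also present in PDGFRα+SCA1+ cells, with means of 628 and 277, so that the sum does not measure endothelial cells alone. Of 9 sinusoidal and lymphatic markers, 7 were lower in SCA1+Msc alone than at day 0, and Lyve1, Stab2 and Oit3 were listed at 0 there. In co-culture 7 were lower and 1 higher. Of the 17 endothelial markers, 2 were higher (Cd93 and Ecscr), 4 lower (Vwf, Clec14a, Robo4 and Plvap) and 11 not called in SCA1+Msc alone, and 1 was higher (Ecscr), 3 lower (Vwf, Clec14a and Plvap) and 13 not called in co-culture. Tek, the receptor of angiopoietins, was at 39.8 and 46.7 at day 0 and at 6.37 or less in all 4 cultured samples (log2 differences -4.57 ± 0.84 with adjusted p = 0.00176 alone, and -4.02 ± 0.84 with adjusted p = 0.00370 in co-culture). The rest of the angiopoietin list was mixed. Means at day 0, alone and in co-culture fell for Ptprb (62.5, 3.52 and 5.76) and Angpt1 (7.50, 3.83 and 4.31). They were 30.7, 36.9 and 32.2 for Tie1, and rose for Angpt2 (11.9, 41.9 and 80.8) and Angpt4 (79.3, 325 and 235). The part of these markers in the fall of Flt1, Kdr and Nrp2 was not tested.

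Vegfa was at 29.2 and 23.5 TPM in SCA1+Msc at day 0, 8.58 and 6.81 alone and 17.6 and 9.08 in co-culture. All cultured samples were under day 0, with log2 differences of -1.65 ± 0.31 alone (adjusted p = 0.00182) and -0.99 ± 0.31 in co-culture (adjusted p = 0.0255). The second was lost in 3 of 10 alternatives, among them the exclusion of co-cultured replicate 2 (-0.55, adjusted p = 0.188) or of day 0 replicate 1 (-0.84, adjusted p = 0.105). Hepatocyte marker sums were 16610 to 21383 at day 0 and 0.400 to 399.5 in the cultures, with all 6 markers lower, and their part in the fall of Vegfa was not tested.

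Vegfb was at 26.4 and 18.9 at day 0, 56.3 and 95.4 alone and 66.6 and 100.5 in co-culture. All cultured samples exceeded day 0, by 1.67 ± 0.34 (adjusted p = 0.00305) and 1.83 ± 0.34 (adjusted p = 0.00191). Vegfc was at 71.8 and 112 at day 0, 127 and 122 alone and 96.7 and 118 in co-culture, with an interval of the difference alone from -0.35 to 1.29. Pgf was at 188 in both day 0 samples, 206 and 222 alone and 329 and 313 in co-culture. Its co-cultured samples were above the others, but the log2 difference from day 0, 0.77 ± 0.57, was not called (adjusted p = 0.316), but passed when only those groups were fitted (adjusted p = 0.00822).

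The list gene Vegfd was the ligand at the highest level in cultured SCA1+Msc, at 133 and 134 at day 0, 2257 and 1957 alone and 1277 and 1461 in co-culture. It rose by 3.97 ± 0.38 alone (adjusted p = 3.27e-05) and 3.35 ± 0.38 in co-culture (adjusted p = 9.73e-05), and its share of ligand transcript went from 28.0% to 29.6% at day 0 to 81.4% to 85.01% alone and 71.5% to 73.0% in co-culture. Of the 10 genes of the VEGF family list, 1 was higher and 1 lower alone, and 2 were higher and 1 lower in co-culture. Apln, which encodes the peptide apelin of sprouting endothelium, rose by 4.04 ± 0.55 alone (adjusted p = 0.000297) and 5.49 ± 0.55 in co-culture (adjusted p = 4.79e-05), among 25 receptor signalling genes of which 7 and 9 were higher and 6 and 8 lower. Of all genes tested, 27.4% were called higher and 17.5% lower alone, and 26% higher and 17.3% lower in co-culture.

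Co-cultured SCA1+Msc were not told apart from SCA1+Msc alone in any member. Limma called 0 of 9 (0.127% of all genes, 0.0937% higher and 0.0331% lower), and 0 had an unadjusted p under 0.05. The Vegfa difference was 0.66 with a 95% interval from -0.02 to 1.35, and that of Pgf was 0.58 with an interval from -0.71 to 1.87.

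Between the 2 chambers of the co-culture, 6 of 9 members were higher in SCA1+Msc than in organoids (36.7% of all genes called, 17.7% higher and 19% lower). Vegfc was higher by 5.58 ± 0.37 (adjusted p = 1.67e-06), Pgf by 6.25 ± 0.57 (adjusted p = 1.80e-05), Nrp1 by 4.45 ± 0.19 (adjusted p = 9.88e-08) and Flt1 by 2.97 ± 0.30 (adjusted p = 3.85e-05). Kdr was at least 131.2-fold higher (adjusted p = 4.56e-05), and Vegfb was higher by 1.16 ± 0.34 (adjusted p = 0.0229), which was lost without either organoid sample (adjusted p = 0.101 and 0.0742) or without SCA1+Msc replicate 2 (adjusted p = 0.157). Vegfa did not pass the test between the chambers (0.29, 95% interval -0.40 to 0.97), and neither did Flt4 (0.14, -0.65 to 0.93) or Nrp2 (-0.96, -1.99 to 0.07). Vegfd was at 1277 and 1461 in SCA1+Msc and at 0.0464 (1 read) and 0 in organoids.

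The genes with the pattern most like each member were found by the mean Pearson correlation of log2(value + 1) over the 12 samples of each experiment, among 13368 genes. The points share libraries, and the values are descriptions. Kdr was closest to Ackr1 and Robo4 (mean r 0.95 each), Flt1 to Ramp2 (0.97) and Sp100 (0.96), and Flt4 to Ptprb (0.89) and Shroom4 (0.88). Nrp1 was closest to Rgl1 and Abat (0.98 each), and Nrp2 to Ppp1r2 and Plxna2 (0.93 each). Among the ligands, Vegfc was closest to Rftn1 and Plscr4 (0.97 each), Pgf to Art4 (0.94) and BC028528 (0.92), Vegfa to Lamc3 (0.93) and Itpkc (0.91), and Vegfb to Lrrc75a (0.83) and Ift20 (0.81).

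The members lie on 7 chromosomes of GRCm38. Flt1 and Kdr lie on chromosome 5 (147561604 to 147726011 and 75932827 to 75978458) and Vegfc and Nrp1 on chromosome 8 (54077606 to 54187096 and 128358604 to 128503363). Nrp2 lies on chromosome 1 (62703285 to 62818695), Flt4 on 11 (49609263 to 49652739), Pgf on 12 (85166635 to 85177790), Vegfa on 17 (46016993 to 46032369) and Vegfb on 19 (6982473 to 6987651). An antisense gene and a gene on the same strand overlap Nrp2, and a microRNA gene on the same strand, Mir1903, overlaps Nrp1. All are protein coding, and all counts were made over their exons. Reads of Nrp2 and of the antisense gene cannot be told apart where exons overlap and strand was not used. For the overlapping genes on the same strand, reads cannot be told apart by strand where exons overlap.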

How the data were processed

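Expression values of 24 samples were used as the authors deposited them, 12 in each experiment. Per the labels and methods, Smart-seq2 reads were aligned to GRCm38 with STAR 2.5.0a and counted on exons with featureCounts 1.6.0. The transwell file holds RPKM made by the authors, which was rescaled here to TPM. The homeostasis file was deposited by the authors under the name TPM, but its values are RPKM divided by sample totals that were recycled down the gene list, so each value is between 0.722 and 1.39 times its TPM. These were used as deposited for levels and tests. The reuse was undone for the summed ligand level, its shares and the ratio of Flt1 to Kdr, and as an alternative, whereas marker sums use the deposited values. In the transwell file, 26 symbols had turned into dates.

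Depth was recovered from values worth up to 20 reads with GENCODE M21 exon lengths, of which 91.2% to 94.2% were whole reads within 0.02. Floors of 3 reads cover counting error only. A gene was fitted if it reached a value of 1 in 3 homeostasis or 2 transwell samples. limma 3.58.1 (R 4.3.3) was run on log2(value + 1), which understates changes of low genes, with a mean for each group and all 12 samples of the experiment sharing the spread. Tests were two-sided, with Benjamini-Hochberg adjustment over all genes and a threshold of 0.05, and the script was tested on simulated data. Other steps used Python 3.11.15, numpy 2.4.6 and pandas 2.3.3.

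The text names the 9 members, called genes of the lists (largest change first, though some examples, such as Erg, Tek and Pecam1, were chosen after their values were seen), and the 2 genes most correlated with each member, without predicted (Gm) and Rik genes. Members and lists were chosen with earlier results of these data known. The mouse letters pair the homeostasis samples, whose residuals correlated by 0.00395 to 0.0973 over 18 pairs of the same mouse. Alternatives were a pseudocount of 0.1, no filter, quantile normalization, only the groups compared, a replicate block, RPKM as deposited, the reuse undone and each sample left out. Sequences came from RefSeq promoters on GRCm38.p6. Protein sequences were not analysed here.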

Additional observations from a re-analysis of the deposited data

Results flagged for a closer look

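The change from day 0 to co-culture at day 15 differed between ductal cells and SCA1+Msc for 2 genes by a test of the difference itself (limma interaction term). These were Nrp2, the 1 of 9 members called, and Vegfd. Of all 18136 genes tested 28.3% were called, 13.8% higher and 14.5% lower. The test sets cultured against day 0 cells and does not single out co-culture. Mean Nrp2 in SCA1+Msc was 12.4 at day 0, 1.56 alone and 1.74 in co-culture. For Nrp2 the change was 2.98 ± 0.65 higher in ductal cells on the log2 scale (adjusted p = 0.00821). Co-cultured organoids differed from DCs at day 0 by 0.70 ± 0.46 (adjusted p = 0.263), and co-cultured SCA1+Msc from their day 0 by -2.29 ± 0.46 (adjusted p = 0.00298). The interaction was 2.27 to 3.68 over 14 alternatives and was called in each of them. For the list gene Vegfd it was -4.42 ± 0.53 (adjusted p = 0.000382), between -6.48 and -3.74 over its 14 alternatives, with at most 1 read of Vegfd in each co-cultured organoid sample. Groups of 2 and 3 samples were too small to test single samples that stand apart.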

How the results depend on the processing

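No gene value reversed its direction. The same gene values were checked in several alternatives and counted once in each. Without leaving out samples, 613 of these checks kept their side of the threshold, 12 passed it newly and 13 lost it. With samples left out these numbers were 515, 5 and 25. The number of members called moved by over 1.5 times in a few cases. For PDGFRα+SCA1- cells against DCs it went from 3 to 5 with quantile normalization. For co-cultured against EM organoids it went from 1 to 2 with a pseudocount of 0.1. For the interaction it went from 1 to 2 with a pseudocount of 0.1, with quantile normalization and with RPKM as deposited. Leaving out single samples gave 3 to 5 members for PDGFRα+SCA1- cells against DCs, 0 to 1 between the PDGFRα+ fractions, 1 to 2 between the organoid groups and 1 to 2 for the interaction. The causes were not tested beyond the samples named beside the results. Undoing the reused totals changed no call. With the replicate block, 6 members rather than 4 were called in EM organoids against DCs at day 0, with Vegfc (adjusted p = 0.0204) and Pgf (adjusted p = 0.0484) added, and no other call of a named gene changed. Transwell replicates share only a number (residual correlations from -0.0188 to 0.0295 over 30 pairs). With 2 samples a group, replicates 1 and 2 of any 2 groups give the same correlation, so the 30 pairs are not separate values. With 2 samples a group, a sample left out leaves 1, which is assumed to vary like the other groups.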
